A study of Homo sapiens with 4 samples.

Results

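The epithelial and mammary lineage transcription factors examined here were 10 genes, TP63, KLF5, ELF3, EHF, ELF5, GATA3, GRHL2, OVOL1, SOX9 and SOX10, among 20499 genes that the array probes could be assigned to. Every probe whose transcript accession belongs to one of these genes was taken, which gave 12 probes with 1 spot each. All 10 genes had a probe, and ELF5 and GRHL2 had 2. The cells were MCF-10A, an immortalised but non-tumorigenic human mammary epithelial line, all cultured with epidermal growth factor, insulin, hydrocortisone and cholera toxin. They were treated with 10 µM of a hydrocarbon-stapled peptide, a short helix locked by a chemical bridge between side chains. The samples are named stapled-peptide at 24 h, non-specific stapled-peptide at 24 h, stapled-peptide at 48 h and non-specific stapled-peptide at 48 h, with 1 single-colour array each. The treatment field of both non-specific stapled-peptide samples reads control, and the labels do not say which analog of the study each name stands for. Each peptide difference below is on the log2 scale and is positive where the non-specific stapled-peptide array had the higher signal, and whether this is the direction of the study is not known.

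These factors set and keep epithelial identity. p63, the product of TP63, is the defining factor of basal cells in stratified and glandular epithelia, and it drives basal keratins and the adhesion complexes that anchor cells to the basement membrane. GATA3 and ELF5 act in the luminal compartment of the mammary gland, GATA3 in hormone-responsive cells and ELF5 in milk-producing alveolar cells. ELF3 and EHF are ETS factors found mainly in epithelia, KLF5 is a zinc finger factor of proliferating epithelial cells, GRHL2 and OVOL1 uphold epithelial junction genes, and SOX9 and SOX10 mark progenitor states, SOX10 being also a factor of the neural crest.

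With 1 array per condition there was no replicate and no test between conditions, and how far a value would vary between cultures is not known. The only error given is that of a single spot, from the scanner software's own estimate, and it covers the measurement of that spot alone. All 4 arrays lay on 1 slide and were scanned in 1 run. The 48 h array of the non-specific stapled-peptide, called the last array below, stood apart from the rest. Across the probes well above background on at least 1 array of a pair, its signals correlated with those of the other 3 at r = 0.80 to 0.81, against 0.98 for each pair among the other 3. Results at 48 h between the peptides rest on this single array, and they are given beside the 24 h peptide difference and the change from 24 h to 48 h with stapled-peptide, which do not use it. Comparisons that share an array are not independent. From 62.5% to 65.7% of the spots of an array were well above background, a mark set by the software. A probe that had this mark on 1 of the compared arrays entered as a bound, against the lowest signal with the mark on the other array or its own signal there if higher. A probe without the mark on both arrays got no difference, and neither did a bound whose sign went against the array with the mark.

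On the first 3 arrays, 5 of the 10 factors were well above background, namely TP63, KLF5, ELF3, EHF and GATA3. On the last array EHF was dim, while GRHL2 and SOX9 were measurable, so that their differences could only come out higher. ELF5, OVOL1 and SOX10 stayed dim, without the mark, on all 4 arrays. Between the peptides at 48 h, 7 factors had a difference, and 2 of them passed 4-fold, EHF lower and GRHL2 higher. Over all genes, 16.8% of 17109 passed 4-fold in this comparison, 8.7% lower and 8.1% higher. At 2-fold the count was 4 factors lower and 1 higher, against 19.8% and 21.2% of all genes (41% together). At 10-fold EHF alone passed, against 6.56% of genes, and at 100-fold 0 factors did, against 0.947%. The median difference of the 7 factors was -1.01, with bounds taken at their value, and that of all genes was 0.03. At 24 h, 0 of 5 factors passed 4-fold, against 0.413% of 16225 genes, and 0 passed 2-fold, against 1.87%. From 24 h to 48 h, 0 of 5 factors passed 4-fold with stapled-peptide, against 0.521% of all genes, and 2 of 7 did so with the other peptide, against 16.6%. At 2-fold, 10-fold and 100-fold the latter counts were 5, 1 and 0 of 7, against 41.3%, 6.5% and 0.931% of genes. As RNA was taken from whole cultures, a smaller share of cells expressing a gene and less of its RNA per cell cannot be told apart.

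**Figure D1:**
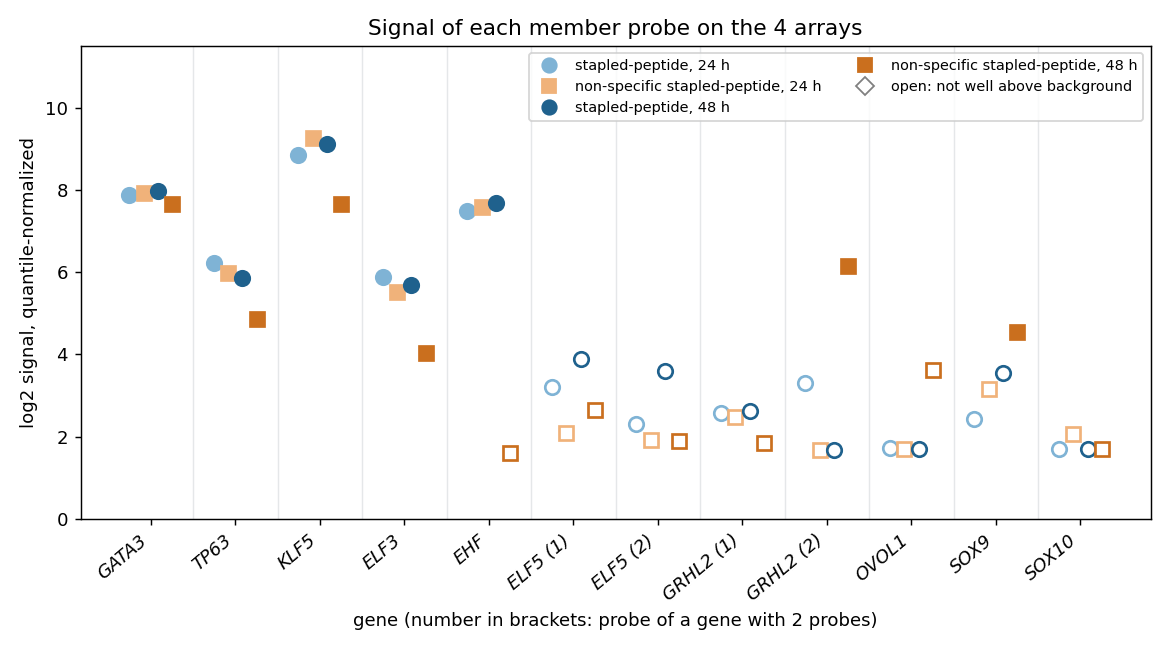
Quantile-normalized log2 signal (vertical axis) of each of the 12 probes of the 10 factors (horizontal axis) on the 4 arrays, 1 point per array, blue circles for stapled-peptide and orange squares for non-specific stapled-peptide, with the darker shade for 48 h; open points are not well above background. The dark orange square lies below the other 3 points for TP63, KLF5, ELF3 and EHF, close to them for GATA3, and far above them at 1 of the GRHL2 probes.

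TP63 was measured by 1 probe, assigned to the transcript NM_003722. At 24 h it read 6.22 on the stapled-peptide array and 5.99 on that of the non-specific stapled-peptide, in normalized log2 units, and at 48 h 5.86 and 4.85 in the same order. The first 3 values lay within 0.36 of each other, and the last lay 1.01 below the lowest of them. The 48 h difference of -1.01 was 2.02-fold, with a spot error of 0.28 on the log2 scale. The 24 h difference was -0.23 and the change from 24 h to 48 h with stapled-peptide was -0.36, with a spot error of 0.24 each. TP63 gives rise to several isoforms from separate starts and splice forms, and which of them the probe detects is not known here. At 48 h, 19.6% of all genes had a lower difference than TP63.

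KLF5 was measured by 1 probe of the transcript NM_001730. Its log2 signals were 8.86 and 9.26 at 24 h and 9.13 and 7.64 at 48 h, with stapled-peptide first in each pair. The fall on the last array was 1.48 against stapled-peptide at 48 h, or 2.79-fold, with a spot error of 0.20. At 24 h the difference had the other sign, 0.40 with a spot error of 0.20, and with stapled-peptide the signal at 48 h was 0.27 above that at 24 h. KLF5 was thus the factor with the widest spread among the first 3 arrays of those measured on all of them, and its last value still lay outside that spread.

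The ETS factors ELF3 and EHF were both lowest on the last array. ELF3 had log2 signals of 5.88 and 5.52 at 24 h and 5.68 and 4.04 at 48 h. Its 48 h difference was -1.64, or 3.11-fold, with a spot error of 0.32, and it did not pass 4-fold. The 24 h difference was -0.36 and the change over time with stapled-peptide -0.20, so the first 3 arrays lay within 0.36 of each other. EHF had signals of 7.48 and 7.58 at 24 h and 7.68 at 48 h with stapled-peptide, a range of 0.21. On the last array its signal was 1.61 and not well above background. In linear units before normalization the EHF spot gave 181.3, 193.7 and 180.7 on the first 3 arrays and 2.5, with an error of 2.6, on the last. The difference at 48 h was a bound of -4.11, which is at least 17.3-fold lower. Against the 24 h array of the same peptide it was at least 16.2-fold lower. Among all genes at 48 h, 443 of 17109, or 2.59%, had a lower value than the EHF bound. At 24 h the EHF difference was 0.11. In that comparison 1 gene of 16225 differed by as much as the 48 h EHF bound, in either direction. ELF5 is the neighbour of EHF on chromosome 11. Its first probe read 3.21 and 2.08 at 24 h and 3.90 and 2.64 at 48 h, and its second 2.30, 1.91, 3.59 and 1.90 in the same order, without the mark on any array, so that no difference was given for ELF5.

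**Figure D2:**
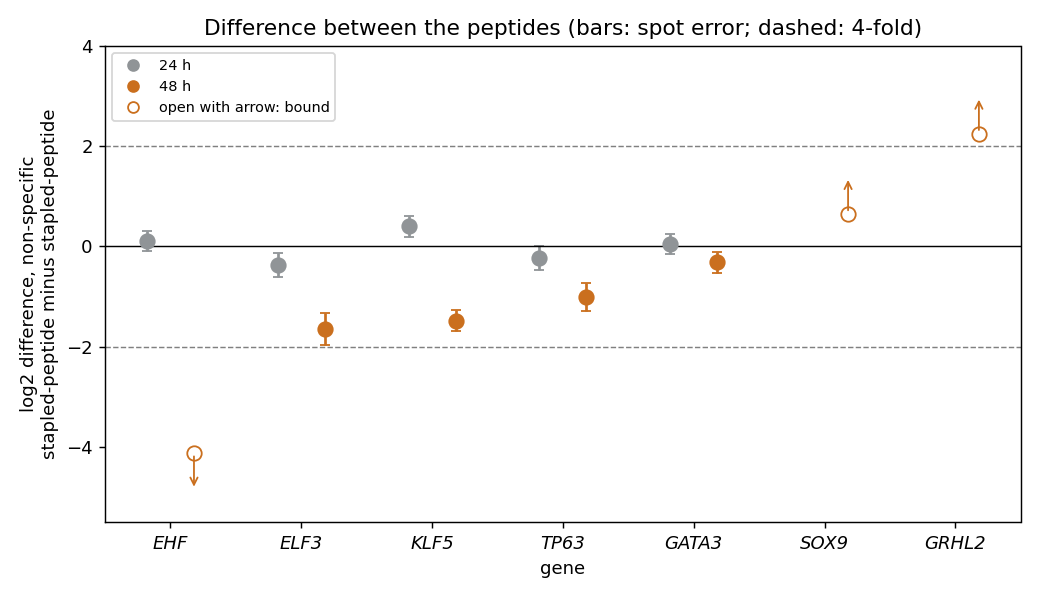
Log2 difference between the peptides (vertical axis, non-specific stapled-peptide minus stapled-peptide) for the 7 factors with a value at 48 h (horizontal axis), in grey at 24 h and in orange at 48 h, with bars for the spot error, open points with arrows for bounds and dashed lines at 4-fold. The 5 grey points lie between -0.36 and 0.40, whereas the orange points run from the EHF bound of -4.11 to the GRHL2 bound of 2.25.

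The sequence before the transcription start is shown for ELF3 and EHF because these ETS genes had the largest falls among the factors in the main setting. The fall of ELF3, -1.64, was close to that of KLF5, -1.48, and their order depended on the processing. RefSeq sequences of the assembly GRCh38.p14 were searched, over the 250 bases before each listed start, for short motifs of the factor families described here. These were CACCC or GGGTG, the box of KLF factors, CACCTG or CAGGTG, the E-box to which SNAI and ZEB repressors bind, AGATAA or TTATCT for GATA factors, GGAAG or CTTCC, the core of ETS sites, and AACCNGTT for GRHL factors, each on both strands. Capitals mark the matches, and no matches overlapped in the 3 windows printed. The windows are chr1:202010337-202010586 for ELF3, chr11:34624007-34624256 for EHF start 1 and chr11:34632316-34632565 for EHF start 2, all on the plus strand and written 5′ to 3′.
ELF3: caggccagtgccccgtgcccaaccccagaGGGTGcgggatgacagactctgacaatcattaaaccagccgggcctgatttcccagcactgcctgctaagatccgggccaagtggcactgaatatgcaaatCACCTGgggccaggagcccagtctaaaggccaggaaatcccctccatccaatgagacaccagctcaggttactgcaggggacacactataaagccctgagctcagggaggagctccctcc
EHF start 1: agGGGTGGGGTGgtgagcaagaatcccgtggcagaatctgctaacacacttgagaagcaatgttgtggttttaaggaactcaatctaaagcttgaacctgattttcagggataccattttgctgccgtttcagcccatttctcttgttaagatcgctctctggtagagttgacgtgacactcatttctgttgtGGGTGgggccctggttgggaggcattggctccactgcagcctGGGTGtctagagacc
EHF start 2: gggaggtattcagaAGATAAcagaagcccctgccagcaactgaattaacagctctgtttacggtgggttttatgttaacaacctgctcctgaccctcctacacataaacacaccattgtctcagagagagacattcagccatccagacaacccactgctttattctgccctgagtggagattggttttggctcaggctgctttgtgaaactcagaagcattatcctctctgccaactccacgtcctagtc

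The ELF3 window held 1 KLF-type box and 1 E-box, the latter starting at position -120 from the transcription start. The window of EHF start 1 held 4 KLF-type boxes, at -248, -243, -57 and -15, and that of start 2 held 1 GATA match at -236. Over all 35116 windows in the table, 54.7% held the KLF-type box, 17.5% the E-box, 9.17% the GATA letters, 65.1% the ETS core and 0.82% the GRHL letters. Windows of 6 of the factors, TP63, KLF5, ELF3, EHF, ELF5 and GATA3, were examined, 13 in all. The E-box was in 1 of the 13, the GATA letters in 1, the KLF-type box in 11, the ETS core in 6 and the GRHL letters in 0. A match describes these letters only.

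GATA3 moved least of the factors measured on all 4 arrays. Its probe gave log2 signals of 7.88 and 7.93 at 24 h and 7.97 and 7.66 at 48 h. The 48 h difference was -0.31 with a spot error of 0.21, and 79.4% of all genes had a difference at least as large. Before normalization its linear signals at 48 h were 222.6 and 222.5, so that without normalization the difference was -0.000459 while the median of all genes was 0.26. At 24 h the difference was 0.05. The GATA3 difference was 1.24-fold on an array on which TP63 was lower by 2.02-fold and ELF3, KLF5 and EHF by more.

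GRHL2, a factor of epithelial junction genes, was read by 2 probes of the same transcript, NM_024915, and they disagreed. The first gave 2.58 and 2.48 at 24 h and 2.62 and 1.85 at 48 h, and it was dim on every array. The second gave 3.29 and 1.67 at 24 h and 1.67 at 48 h with stapled-peptide, all dim, but 6.14 and well above background on the last array. In linear units the second probe read 10.8, 3.6, 2.8 and 78.5. Its bound of 2.25 at 48 h is at least 4.76-fold higher, and against the 24 h array of the same peptide it was at least 5.12-fold higher. The rise of GRHL2 thus rests on 1 spot of 1 probe. OVOL1, a repressor acting beside the GRHL factors, had signals of 1.71, 1.69, 1.69 and 3.62 in the same order of arrays. None of these carried the mark, so no difference was given although the last value was the highest.

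SOX9, a progenitor factor of many glandular epithelia, had signals of 2.43 and 3.15 at 24 h and 3.54 and 4.54 at 48 h. The mark was present only on the last array, which gave a bound of 0.65, at least 1.57-fold higher, and 29.8% of all genes had a higher difference. SOX10 read 1.70, 2.06, 1.70 and 1.69 and was dim throughout. Its partners in the neural crest are given with the marker lists.

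**Figure D3:**
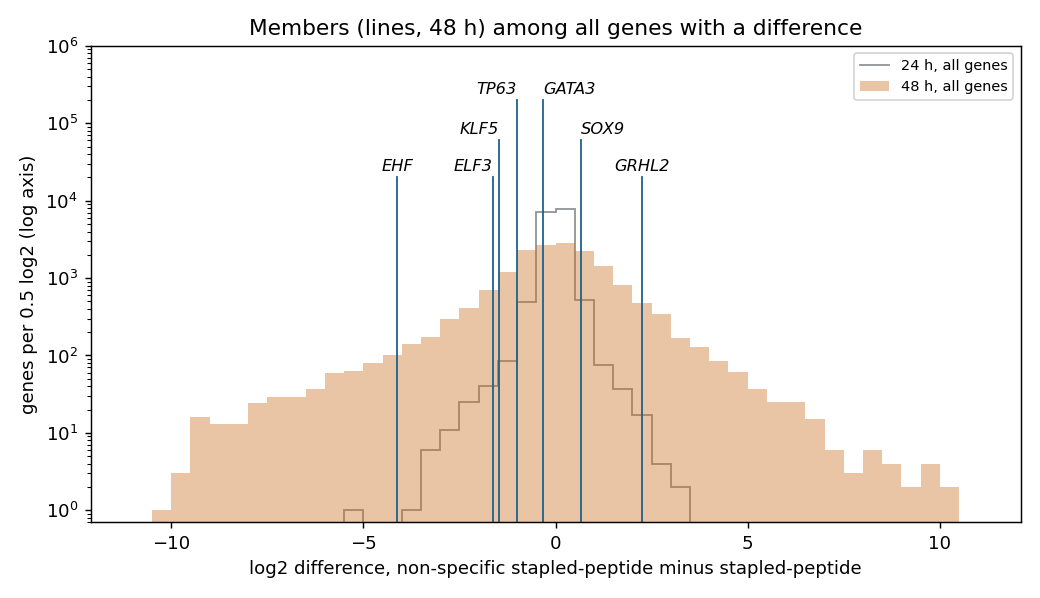
Number of genes (vertical log axis, per 0.5 log2) by their log2 difference between the peptides (horizontal axis), as a grey outline for the 16225 genes at 24 h and an orange fill for the 17109 genes at 48 h, with blue lines at the 48 h values of the 7 factors. EHF at -4.11 and GRHL2 at 2.25 lie on the slopes of the 48 h distribution, and the other 5 factors lie between -1.64 and 0.65.

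Targets of p63 were followed as a list of 16 genes, all with a probe. At 24 h, 0 of 16 passed 4-fold, against 0.413% of all genes, and their median difference was 0.05. At 48 h, 11 of the 15 with a difference were lower by 4-fold or more and 2 were higher, against 8.7% and 8.1% of all genes. Their median was -3.94. Of the 7 factors with a difference, 1 was lower and 1 higher. KRT5, the basal keratin of the p63 programme, read 14.65 and 14.54 at 24 h and 14.59 and 5.02 at 48 h, a difference of -9.58. Its partner keratin KRT14 differed by -7.20. The other 2 of the 3 largest falls were LAMB3, a laminin-332 chain of the basement membrane, at -8.47 and ITGB4, the hemidesmosome integrin subunit, at -8.18. The 2 genes that were higher were FGFR2, a growth factor receptor, at a bound of 4.89 and of 1.78 at its second probe, and the Notch ligand JAG2 at 2.02, just past 4-fold. With outlier-marked spots kept, 1 target in place of 2 was higher, and the same count held with dim probes left out. TP63 itself differed by -1.01 at its only probe. It read 5.86 at 48 h with stapled-peptide, and the lowest level marked as above background on the last array was 3.57. A fall as large as that of KRT5, from 14.59, could therefore not be shown for TP63.

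The epithelial programme, 12 genes of junctions, splicing and membrane proteases that GRHL and OVOL factors are known to uphold, was followed in the same way. Of the 10 genes with a value at 48 h, 2 were lower by 4-fold and 0 higher, a share near the 16.8% of all genes past 4-fold, with a median of -0.41. The genes that passed were SPINT1, a membrane protease inhibitor, at a bound of -4.21, and ST14, the matriptase it inhibits, at -2.01. CDH1, which encodes E-cadherin, differed by -0.31 and EPCAM by 0.88, both on weak signals, CDH1 between 4.92 and 5.44 and EPCAM between 4.86 and 6.46 over the 4 arrays. At 24 h, 0 of 11 passed, against 0.413% of all genes.

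Among 19 relatives of the factors, 18 had a probe and 17 a difference at 48 h, with a median of 0.74. Of the 17, 4 were higher by 4-fold and 2 lower, against 8.1% and 8.7% of all genes. SOX8, of the same SOX group as SOX9 and SOX10, was dim on the first 3 arrays and reached 8.40 on the last, a bound of 4.51. GRHL1 read 4.13 and 3.52 at 24 h and 3.94 and 8.38 at 48 h, a difference of 4.45, although its second probe differed by 0.54. GATA5 had a bound of 2.80, and like SOX8 it was dim on the first 3 arrays, so that both could only come out higher. With dim probes left out, 2 relatives in place of 4 were higher by 4-fold. TP73, the relative of TP63, differed by 2.09 at its brighter probe and by 0.46 at the other. KLF4, a factor of differentiating epithelial cells, differed by -3.32 and the ETS factor ELF1 by -2.40, with -1.68 at its other probe. At 24 h, 0 of 15 relatives passed 4-fold, against 0.413% of all genes.

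**Figure D4:**
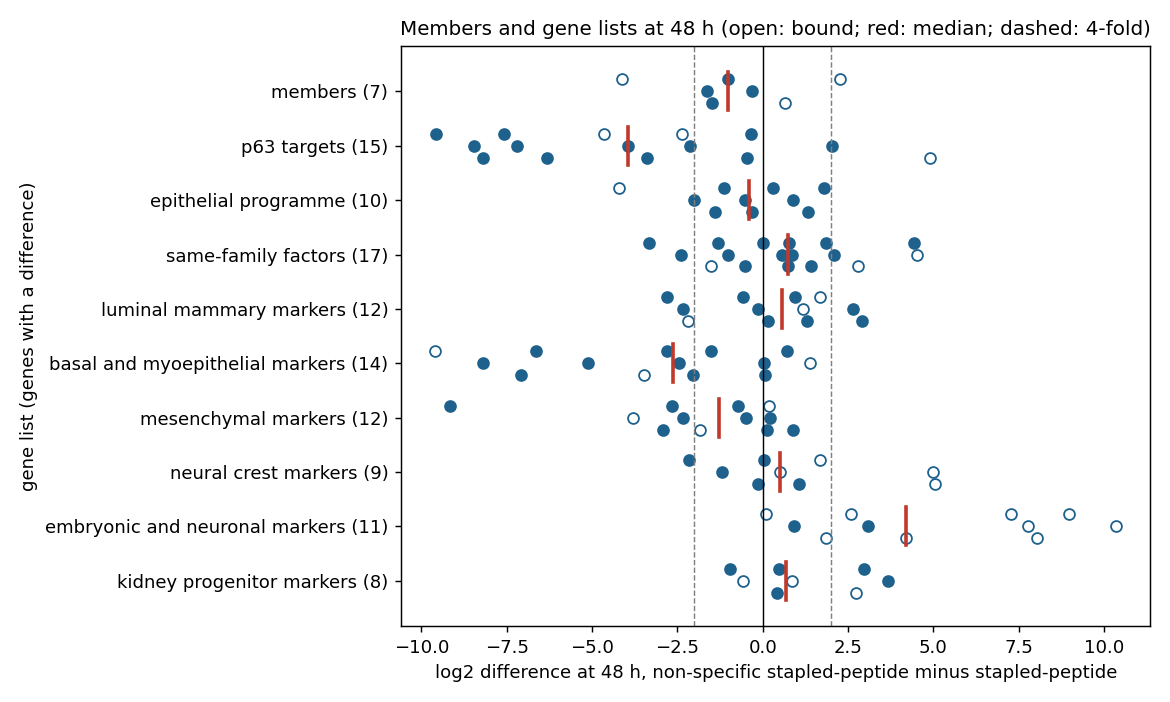
Log2 difference between the peptides at 48 h (horizontal axis) for every gene with a value in the 10 factors (labelled members) and in 9 gene lists (vertical axis, number of genes with a value in brackets), with open circles for bounds, red bars for list medians and dashed lines at 4-fold. The p63 targets have the lowest median, -3.94, and the embryonic and neuronal markers the highest, 4.19, with 9 of their 11 values being bounds.

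Markers of the compartments and of other cell types moved on the same array, and their part in the differences of the factors was not tested. Of 14 basal and myoepithelial markers, 13 were well above background on each of the first 3 arrays and 12 on the last, and their summed linear signal was 65907 to 73152 on the first 3 and 2037 on the last. At 48 h 9 of 14 were lower by 4-fold, against 8.7% of all genes, and the median of the 14 was -2.63. The largest falls were those of KRT6A at a bound of -9.60, the calcium-binding protein S100A2 at -8.20 and KRT17 at -7.09. On the last array KRT6A was dim, and KRT17, KRT14 and KRT5 read 4.51, 5.00 and 5.02. Of the other markers, 4 had a value above 0, CNN1 at a bound of 1.37, OXTR at 0.72, ACTA2 at 0.07 and KRT6B at 0.03, named here after their values were seen. Whether the RNA on the last array came from the labelled line was not tested.

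Of 17 luminal markers, 10 to 12 were above background on each array, with a summed signal of 35433 to 36882 on the first 3 and 39853 on the last. These sums rest largely on different genes. The brightest marker was KRT18 on the first 3 arrays, at 14.70 to 14.79, and it read 12.45 on the last. On the last array XBP1 was the brightest, at 14.99, after 12.07 to 12.16 on the first 3. At 48 h XBP1, a factor of secretory cells, was higher by 2.91 and MYB by 2.65. Of the luminal keratins, KRT8 differed by -2.79 and KRT18 by -2.34. KRT19, named here after its value was seen, went the other way at 0.94, on weak signals of 4.50 to 5.44. STAT5A, which acts with ELF5 in alveolar cells, had a bound of -2.19. ESR1, the oestrogen receptor gene, differed by -0.15 at its brightest probe, on weak signals of 4.86 to 5.19, and its other probes were dim on every array. PGR, AGR2 and LALBA were dim on every array. The median of the 12 luminal markers with a value was 0.55.

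Of 14 mesenchymal markers, 10 or 11 were above background on each array, with summed signals of 112877 to 117662 and 19959. At 48 h 5 of 12 were lower by 4-fold and 0 higher, against 8.7% and 8.1% of all genes, with a median of -1.28. The 5 were DCN, a matrix proteoglycan, at -9.15, TWIST2 at a bound of -3.80, TWIST1 at -2.92, SNAI2 at -2.67 and VIM at -2.35. COL1A2 and COL3A1 were dim on every array. Of the other repressors of epithelial genes in the list, named here after their values were seen, SNAI1 differed by 0.88, ZEB1 by -0.49 and ZEB2 by -0.73. The probes of the last 2 disagreed. A second ZEB1 probe, well above background on every array, differed by -2.06, and other ZEB2 probes differed by 0.30 and 0.08.

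Of 11 neural crest markers, 5 or 6 were above background on the first 3 arrays and 9 on the last, with summed signals of 759 to 848 and 1694. PAX3 and FOXD3, which act with SOX10 in that lineage, had bounds of 5.05 and 5.00 at 48 h, although a second PAX3 probe gave a bound of 1.74. The brightest PAX3 probe and FOXD3 were dim on the first 3 arrays, so that their values could only come out higher. With dim probes left out, 0 neural crest markers in place of 2 were higher by 4-fold, and the list median was -0.13 in place of 0.50. EDNRB differed by -2.16. S100B, a defining Schwann cell marker, was dim on every array, as was SOX10. Of 13 embryonic and neuronal markers, 2 were above background on each of the first 3 arrays and 11 on the last, with summed signals of 314.6 to 390.5 and 37464. At 48 h 8 of 11 were higher by 4-fold, against 8.1% of all genes, with the largest bounds 10.36 for UCHL1, 8.98 for LIN28B and 8.05 for NEFM. Of the 11 with a value, 9 had it only because the last array carried the mark, so they could only come out higher. With dim probes left out 1 gene passed 4-fold, and with the normexp background correction 6 did. Of 9 kidney progenitor markers, 5 to 6 were above background on the first 3 arrays and 7 on the last, with summed signals of 453.9 to 462.1 and 2273. LHX1 at 2.95 and SALL1 at a bound of 2.74 were higher at 48 h. SALL1 was dim on the first 3 arrays and could only come out higher. At 24 h, 0 genes of these 6 marker lists passed 4-fold, against 0.413% of all genes with a difference. Only 2 of the 13 embryonic and neuronal markers had a 24 h difference.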

How the data were processed

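The authors labelled RNA with Cy3, hybridized it to Agilent arrays and deposited spot intensities. These were background-subtracted by Feature Extraction, version 10.7.1.1 per the file headers and 9.5 per the labels, without normalization between arrays. Control spots and outlier-marked spots were left out here, log2 signals were averaged per probe, held at a signal of at least 1 and quantile-normalized as the methods of the study state. Of 50599 probes, 9 had no spot left on an array. RefSeq accessions gave 28170 probes a symbol. A gene's value is that of its brightest probe. Named were the 10 factors at every probe, and from each list the genes past 4-fold at 48 h, if 6 or fewer in a direction and otherwise the 3 largest, plus KRT5, KRT14, KRT8, KRT18, ESR1, VIM, CDH1 and EPCAM. List counts also name genes that were dim, and some genes of the lists are not reported here. The members and lists were chosen with earlier results of these data known. Python 3.11.15, numpy 2.4.6, pandas 2.3.3 and matplotlib 3.10.9 were used, and limma 3.58.1 (R 4.3.3) served for the normexp correction. The steps were tested on changes simulated in bright probes. That test did not cover changes in dim probes, or changes as widespread as on the last array. Alternatives were other scalings, backgrounds, probe rules and thresholds.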

Additional observations from a re-analysis of the deposited data

Results flagged for a closer look

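For 3 factors the peptide difference had opposite signs at the 2 times, and so had the change over time with the 2 peptides. The difference between the effects was not tested, since each value rests on 1 array per condition. KLF5 differed by 0.40 between the peptides at 24 h and by -1.48 at 48 h, and its change from 24 h to 48 h was 0.27 under stapled-peptide and -1.62 under the other peptide. EHF differed by 0.11 at 24 h and had a bound of -4.11 at 48 h, with changes over time of 0.21 and a bound of -4.02. The 2 positive EHF values had a spot error of 0.21 each and did not exceed it. GATA3 differed by 0.05 at 24 h and by -0.31 at 48 h, with changes over time of 0.09 and -0.27. Each of these GATA3 values had a spot error of 0.21.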

How the results depend on the processing

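The settings tried were no normalization, 75th percentile scaling, normexp with an offset of 50, dim probes at their own signal, dim probes left out, outlier-marked spots kept, the mean over a gene's probes, the authors' table of values per probe, and other thresholds. In none of them did a factor change sign between the peptides at 24 h or 48 h. The count of factors past 4-fold at 48 h, which was 2, became 1 with normexp and 0 with dim probes left out, which removes EHF, GRHL2 and SOX9. It was 5, 1 and 0 at 2-fold, 10-fold and 100-fold. The count from 24 h to 48 h with non-specific stapled-peptide, also 2, became 0 with normexp and 0 with dim probes left out, and 5, 1 and 0 at the same thresholds. With normexp the median difference of the factors at 48 h was -0.43 in place of -1.01. The values were -2.05 for EHF, -0.57 for ELF3, -0.43 for TP63, 0.82 for GRHL2 and 0.20 for SOX9, since the offset compresses weak signals. KLF5 was then at -1.22, a larger fall than that of ELF3. Of 27 medians and counts of the gene lists at 48 h, 15 moved with normexp, 10 with dim probes left out and at most 3 with any other setting at the same threshold. The median of the p63 targets was then -2.29 with normexp and -5.12 with dim probes left out, that of the mesenchymal markers -0.49 and -0.73, and that of the embryonic and neuronal markers 2.15 and 1.99. With 75th percentile scaling the last was 5.70 and that of the mesenchymal markers -2.08. Without normalization, 1809 genes were higher and 1288 lower by 4-fold at 48 h, so that 58.4% of these genes were higher in place of 48.2%. On the last array ELF3 at 4.04 and SOX9 at 4.54 lay near the lowest level marked as above background there, 3.57, which limits their precision. No paired analysis was possible because the labels give no replicate numbers and each time held 1 array per peptide. A model of peptide and time over 4 arrays would leave 1 residual degree of freedom and was not fitted.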

Other observations

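Genes beside the factors on their chromosomes were read after the values of the factors were seen, in the gene order of RefSeq. On chromosome 11, CAT, which encodes catalase, ELF5, EHF, APIP, PDHX and CD44, a hyaluronan receptor, follow each other. At 48 h CAT differed by -2.01, EHF by a bound of -4.11 and CD44 by -8.85, whereas APIP and PDHX, which lie between EHF and CD44, differed by 0.55 and 0.43. Around TP63, at -1.01, the adhesion gene LPP differed by -3.16, BCL6 by -3.84, the collagen-modifying enzyme gene P3H2 by -2.18 and CLDN1 by -0.90, and TPRG1 and CLDN16 were dim on all 4 arrays. Near other factors genes went both ways, and not all of them are named here. Near GATA3, CELF2 had a bound of 5.17 and ECHDC3 differed by -3.39. Near KLF5, BORA differed by 2.87 and TBC1D4 by 2.55, whereas KCNJ2 beside SOX9 differed by -4.35.

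GATA3-AS1, the antisense transcript that starts beside GATA3, had log2 signals of 3.34 and 2.92 at 24 h and 2.33 at 48 h with stapled-peptide, all dim, and 5.65 and well above background with non-specific stapled-peptide at 48 h. Its bound was 1.76, while GATA3 differed by -0.31. Relatives of the GRHL and OVOL factors outside the naming rule went the other way from GRHL1 and GRHL2. GRHL3 differed by -0.53 at 48 h, and OVOL2 by a bound of -1.53.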
